A study of Mus musculus with 24 samples.

Results

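Control mouse B cells were compared before and after 48 h of culture with lipopolysaccharide (LPS) and interleukin-4 (IL-4), using the 4 control libraries at these stages among the 24 RNA-seq libraries of the series. The members were taken from the sample titles alone: 2 libraries titled as control cells after LPS + IL-4 and 2 titled as naive control cells. For comparison only, 2 libraries of control cells cultured for 48 h with CD40 ligand (CD40L) and IL-4 were used too. LPS, a component of the outer membrane of Gram-negative bacteria, is sensed by a receptor complex of TLR4 and MD-2, and in mouse B cells by the related RP105 and MD-1 as well. From TLR4 the signal runs through the adaptor MyD88 to NF-kB and through the adaptors TRAM and TRIF to interferon regulatory factors. IL-4 binds a receptor that activates the transcription factor STAT6, and the pair of stimuli is a textbook way to drive resting B cells into division and toward class switching to IgG1 and IgE.

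The control mice were C57BL/6 animals of the genotype Cd23T/+, which carry a Cre transgene driven by Cd23 regulatory sequence, so the controls of both stages express Cre from the same transgene and have intact Spi1 and Spib. The other genotypes of the series, used here only for comparison, were Spi1 fl/fl Cd23T/+, which lose PU.1 where the transgene is active (PU.1 cKO), Spi1 fl/fl Cd23+/+ Spib-/-, which lack SpiB and carry no Cre (SpiB KO), and Spi1 fl/fl Cd23T/+ Spib-/- (PU.1 SpiB DKO). B cells were purified from lymph nodes by negative selection, and naive cells and cultured cells alike were sorted as CD3- B220+ CD138-, so plasma cells bearing CD138 were gated out of both groups. No culture without a stimulus was among the samples, and the methods call the replicates biological without saying whether each was a separate animal, so p-values measure the spread between these libraries.

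Counts on genes totalled 15118541 and 14231188 in the naive libraries and 22757630 and 56388071 in the LPS + IL-4 libraries. Levels below are CPM, each gene's count relative to the size of its library, scaled by the TMM factors of edgeR over the 4 libraries, and are given in the order replicate 1, replicate 2. Replicates correlated at 0.985 in naive cells and 0.993 after LPS + IL-4 (Pearson, log2 CPM across 12241 genes, which are not independent), against 0.800 to 0.823 between the stages. Stage and sequencing set cannot be told apart: sample numbers recur between the naive and the LPS + IL-4 sets, and the authors' normalized tables list 13569 genes for naive and CD40L + IL-4 libraries but 12634 for LPS + IL-4 libraries, so the LPS + IL-4 libraries were tabulated apart from the others. All 12 B cell markers were detected in every library, with a summed level of 23270 and 23930 CPM in naive cells and 10700 and 10240 CPM after LPS + IL-4, and 11 of them were called lower. The libraries also differed in sex-linked RNA. Xist, transcribed from the inactive X chromosome, was counted at 76.2 and 143 CPM in naive cells and 187 and 0.24 CPM after LPS + IL-4, and the Y-linked gene Ddx3y at 55.5 and 35.3 and 0.24 and 71.7 CPM. LPS + IL-4 replicate 1 thus held almost no Y-linked RNA and replicate 2 almost no Xist, while each naive library held both.

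The quasi-likelihood test of edgeR was run on genes reaching 0.5 CPM in 2 or more of the 4 libraries, and a gene was called at a Benjamini-Hochberg adjusted p under 0.15 and a fold change over 1.5. Of the 12241 genes tested, 8053 (65.8%) were called, 4170 (34.1%) higher and 3883 (31.7%) lower after LPS + IL-4. The difference exceeded 4-fold for 1428 of the genes called higher and 1103 of those called lower, and 16-fold for 457 and 270. The libraries of the groups did not overlap for 84.9% of all genes tested. With changes this widespread, the count of any gene list has to be read against these shares. An exact two-sided permutation test of 2 libraries against 2 cannot give a p below 0.333, so significance rests on the model fitted across all genes. The study's figures also ask for a log2 RPKM above 0. With that minimum on the mean of the 4 libraries 6504 genes were called, and genes with a lower mean or not listed for every library dropped out, Ighg1, Ighe, Ighd, Il6, Il10, Socs2 and Dlk1 among them.

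**Figure D1:**
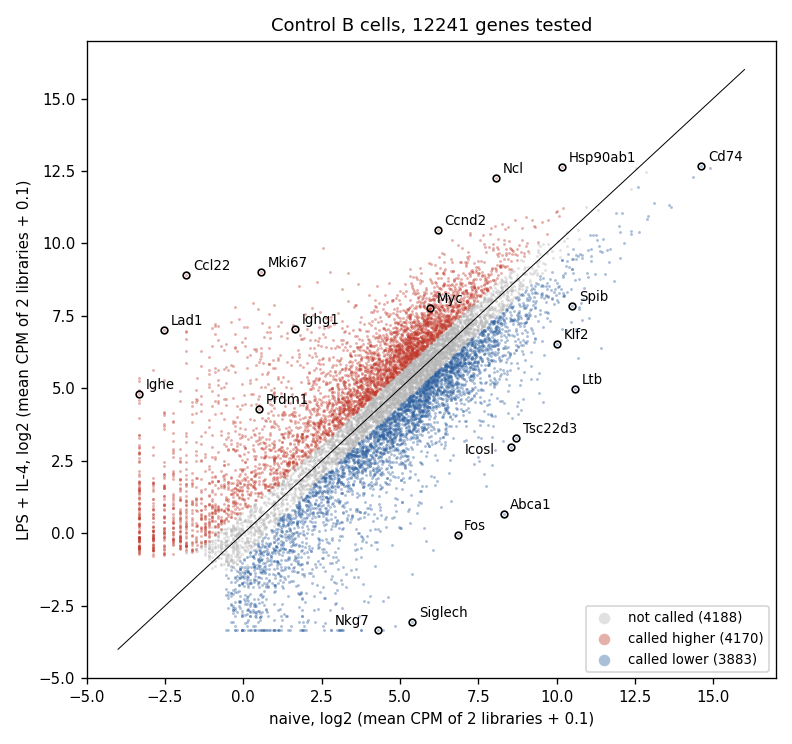
Each point is 1 of the 12241 genes tested, with the mean of the 2 naive libraries on the x axis and of the 2 LPS + IL-4 libraries on the y axis, both as log2 of CPM plus 0.1; red marks the 4170 genes called higher, blue the 3883 called lower, and the line equal levels. Ccl22 and Mki67 lie far above the line and Abca1, Fos and Siglech far below it.

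The largest rises belonged to genes that naive cells hardly expressed, among them a chemokine, IL-4 targets and a kinase of the mitotic spindle checkpoint. Ccl22, a chemokine that attracts T cells through CCR4, was counted at 0.218 and 0.146 CPM in naive cells and at 426 and 530.4 CPM after LPS + IL-4, a log2 fold change of 11.33 (SE 0.31, edgeR adjusted p = 5.72e-08). Lad1, encoding ladinin, went from 0.145 and 0 to 139.6 and 116 CPM (2 counts in naive cells, adjusted p = 6.04e-08). In both genes every LPS + IL-4 library lay far above every naive library. The other 10 of the 12 largest rises had no count in either naive library, so each fold is a lower bound against a floor of 3 counts per library. All 10 lost their call when a mean log2 RPKM above 0 was also asked for. Ttk, the checkpoint kinase, stood at 39.3 and 41.8 CPM after LPS + IL-4, at least 186-fold higher, and Ptgir, the prostacyclin receptor, at 40.3 and 36.1 CPM, at least 175-fold higher. Nqo1, a quinone reductase, was at least 139.9-fold higher, Socs2, a suppressor of cytokine signalling, at least 138-fold and Ighe, the IgE constant region, at least 129-fold. Dnph1, Insm1, Dlk1, Slc1a2 and Htr7 were at least 110.1-, 103-, 71.4-, 47.9- and 47.4-fold higher. In all, 106 genes called higher had no count in either naive library, and 57 called lower had none in either LPS + IL-4 library.

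The 12 largest falls were mostly genes of other blood cells. All but Abca1 lost their call when a mean log2 RPKM above 0 was also asked for. Cd7, Nkg7, Klk1 and Cd4 had no count in either LPS + IL-4 library and fell at least 254-, 229.9-, 158- and 156-fold. Nkg7, a granule protein of natural killer (NK) cells, was counted at 26.2 and 13.2 CPM and Siglech, a plasmacytoid dendritic cell (pDC) receptor, at 59.3 and 24.5 CPM in naive replicates 1 and 2, so replicate 1 held more of each. Gzma (42.9 and 14.7 CPM), Runx2 (17.3 and 8.31 CPM), Clec12a (28.5 and 20.3 CPM), Itgax (19.8 and 8.89 CPM) and Klrb1c (21.7 and 9.33 CPM) in naive cells were each at or below 0.16 CPM in both LPS + IL-4 libraries. All 7 NK cell markers were called lower, with a summed level of 134 and 61.6 CPM in naive cells and 1.16 and 1.08 CPM after culture. Of 13 pDC and dendritic cell markers 9 were called lower and 3 higher (444 and 316 CPM in sum against 228 and 243 CPM, most of it from Tcf4 and Bst2, which B cells express too). Of 14 T cell markers 9 were tested, and 8 were called lower and 1, Thy1, higher (345 and 274 against 54.1 and 48.2 CPM, mostly Cd2). The defining T cell genes Cd3d, Cd3e and Cd3g and the NK receptors Ncr1 and Klrk1 were at 0 in both LPS + IL-4 libraries. Of 16 myeloid markers 4 were tested, 3 called lower and 1 higher, and the list summed to 27.1 and 15.01 CPM against 17.1 and 11.2 CPM. Stromal and erythroid markers (6 of 13 tested, all lower) summed to 176 and 216.5 CPM against 68.7 and 56.99 CPM, mostly Pecam1. In bulk RNA fewer cells of a type and less RNA per cell cannot be told apart. The part of these other cells in genes not on the lists was not tested.

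Abca1 and Fosb, also among the 12 largest falls, are on no list of markers of other cells. Abca1, a transporter that exports cholesterol, fell from 296 and 339 CPM to 2.12 and 0.875 CPM (log2 fold change -7.85, SE 0.36, adjusted p = 1.26e-07). Fosb, an immediate early transcription factor, fell from 27.4 and 16.1 to 0.0399 and 0.154 CPM. Both naive libraries lay above both LPS + IL-4 libraries for each gene.

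Several Toll-like receptors were lower after 48 h with LPS + IL-4. Tlr4 (Entrez ID 21898, chromosome 4, 66827551 to 66846581 of GRCm38), the LPS receptor, was counted at 44.8 and 47.9 CPM in naive cells and 17.6 and 22.6 CPM after LPS + IL-4, with no overlap and a log2 fold change of -1.20 (SE 0.19, adjusted p = 0.00026). Of 24 tested genes of LPS and Toll-like receptor sensing, 12 were called lower and 3 higher, against 31.7% and 34.1% of all genes tested. Their median log2 fold change was -0.57 against 0.02 over all genes tested. The falls were largest for Tlr2 (-2.47), Tlr9 (-2.29), which senses CpG DNA, the kinase Irak2 (-2.14) and Tlr1 (-1.90). The 3 rises were Ticam2, Map3k7 and Ticam1, which encode TRAM, the kinase TAK1 and TRIF. Ticam2 was counted at 8.05 and 9.62 CPM in naive cells and 51.2 and 49.3 CPM after LPS + IL-4 (log2 fold change 2.51, SE 0.19, adjusted p = 2.02e-06). TRAM and TRIF transcripts were thus higher, while Tlr1, Tlr2, Tlr4 and Tlr9 were lower and Tlr7 was not called (131 and 114 against 107 and 103 CPM). Ticam1 (27.4 and 45.2 against 61.3 and 58.0 CPM) had a naive replicate 2 near the LPS + IL-4 libraries, and without naive replicate 1 it was not called. Cd14 was at or below 0.291 CPM in every library and was not tested. In the CD40L + IL-4 culture compared below, 11 of the 24 genes were called lower than naive and 2 higher. Between the cultures 5 were lower with LPS and 1 higher. Tlr4 (14.7 and 18.3 CPM with CD40L, 18.0 and 22.7 CPM with LPS) and Ticam2 were not called between them. The Tlr4 fall and the Ticam2 rise were thus shared by both cultures.

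NF-kB genes changed in both directions. Of 20 genes, 5 were called higher, 4 lower and the other 11 were not called, with a median log2 fold change of -0.02. Over all genes tested 34.1% were called higher and 31.7% lower, larger shares than in this list. The rises were Nfkbiz (6.24 and 10.2 to 92.0 and 79.6 CPM), which encodes a nuclear regulator of NF-kB, Traf1 (22.3 and 33.0 to 240.3 and 285 CPM), an adaptor of TNF receptors, Nfkb1 (1.80 on the log2 scale), the p50 precursor, the feedback inhibitor Tnfaip3, encoding A20 (1.71), and Tnip1, its partner. The falls were the subunits Rela (255 and 285 to 116 and 117 CPM, log2 fold change -1.21, SE 0.16, adjusted p = 6.79e-05) and Relb (-0.60), with Ikbkg (-1.21), the scaffold of the IkB kinase, and the inhibitor Nfkbie (-0.68). Transcripts of p50, A20 and its partner thus rose, and those of the p65 subunit fell. Relb and Nfkbie passed the fold threshold narrowly and lost their calls under library totals alone and without LPS + IL-4 replicate 2. The kappa B letters GGGNNNTTCC, searched on both strands of the 300 bases from 250 before to 50 after each RefSeq start, were in 10 of the 16 NF-kB genes with a promoter in the table (62.5%), in 6.31% of all 27023 genes there and in 5.56% of their 32851 promoters. Among the genes called higher a match was found in 2, shown as windows of 30 bases with 1 match in capitals, on the strand of the gene and from RefSeq GRCm38.p6.
Tnfaip3, chr10:19015403-19015432, minus strand: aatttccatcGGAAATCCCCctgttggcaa
Tnip1, chr11:54962979-54963008, minus strand: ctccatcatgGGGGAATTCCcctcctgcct

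Genes of the IL-4 response held some of the largest rises. Of 18 genes 10 were called higher and 5 lower (median log2 fold change 1.65), against 34.1% and 31.7% of all genes tested. Il4ra (Entrez ID 16190, chromosome 7, 125552271 to 125579474 of GRCm38), the IL-4 receptor chain, was counted at 459 and 590.1 CPM in naive cells and 988 and 930.4 CPM after LPS + IL-4 (log2 fold change 0.87, SE 0.17, adjusted p = 0.00104). Cish, a STAT-induced feedback inhibitor, rose from 0.29 and 0.656 to 153 and 134 CPM. Nfil3, a transcription factor that IL-4 induces in B cells, rose from 1.02 and 1.53 to 227 and 199.8 CPM. These inhibitors and regulators were near 0 in naive cells and far higher in both LPS + IL-4 libraries. Several components that carry the signal were lower: Il2rg, the shared cytokine receptor chain, fell from 582 and 590.0 to 131 and 139 CPM (log2 fold change -2.12, SE 0.15, adjusted p = 1.4e-06), Irs2, an adaptor of the IL-4 receptor, had a log2 fold change of -2.82, and Stat6 fell from 269 and 285 to 162 and 160.3 CPM. Fcer2a, the gene of CD23 (Entrez ID 14128, chromosome 8, 3680280 to 3694174 of GRCm38), which IL-4 is known to induce on B cells, was lower here, at 1365 and 1511 CPM in naive cells and 730.2 and 685 CPM after LPS + IL-4 (log2 fold change -1.02, adjusted p = 0.000167). Jak1 (533 and 594 against 430.0 and 419 CPM) and Socs3 were not called. The STAT6 letters TTCNNNNGAA were in 2 of 16 genes of the list (12.5%) and in 8.01% of all genes with a promoter. The match in a gene called higher began 4 bases before the start of Bcl2l1, the gene of the survival protein BCL-XL, which rose by 3.73 on the log2 scale.
Bcl2l1, chr2:152828474-152828503, minus strand: tgagtgctttTTCTTCAGAAtcctgctcgc

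Cytokine genes changed in both directions. Of 16 tested, 8 were called higher and 7 lower, against 34.1% and 31.7% of all genes tested. Il6 had no count in naive cells and stood at 7.15 and 9.01 CPM after LPS + IL-4, and Il10 went from 0.0726 and 0 to 6.55 and 6.31 CPM (adjusted p = 4.5e-06). Vegfa rose from 1.09 and 0.291 to 8.03 and 6.74 CPM. Ltb, lymphotoxin beta, which B cells use to maintain follicles, fell from 1597 and 1479 to 34.6 and 28.7 CPM (log2 fold change -5.60, SE 0.19, adjusted p = 5.72e-08). Il12a, a subunit of IL-12, fell from 10.4 and 10.3 to 2.12 and 1.25 CPM. Il6 and Il10 were thus near 0 in naive cells and present after culture, and Ltb and Il12a were lower but still counted. Ccl5 fell from 39.6 and 19.7 to 6.19 and 6.04 CPM and Ifng from 1.02 and 0.729 CPM to 0, alongside the NK and T cell markers above. Among 22 tested genes of activation and costimulation, 6 were called higher and 6 lower, smaller shares than over all genes (34.1% and 31.7%). Il2ra, the high-affinity IL-2 receptor chain, rose from 1.74 and 1.46 to 37.3 and 53.0 CPM, Tfrc, the transferrin receptor, from 41.4 and 38.3 to 397 and 543 CPM and Cd44 from 114 and 98.4 to 385 and 470.1 CPM. Cd86 rose by 0.88 on the log2 scale. Icosl, the ligand of ICOS on T cells, fell from 314 and 438 to 9.10 and 6.31 CPM (log2 fold change -5.62, SE 0.26, adjusted p = 1.32e-07), and Tnfrsf18 (-3.18) and Pdcd1lg2 (-2.62) fell too. The receptors Il2ra, Tfrc and Cd44 were therefore higher, and Icosl and Pdcd1lg2, ligands of T cell receptors, lower.

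**Figure D2:**
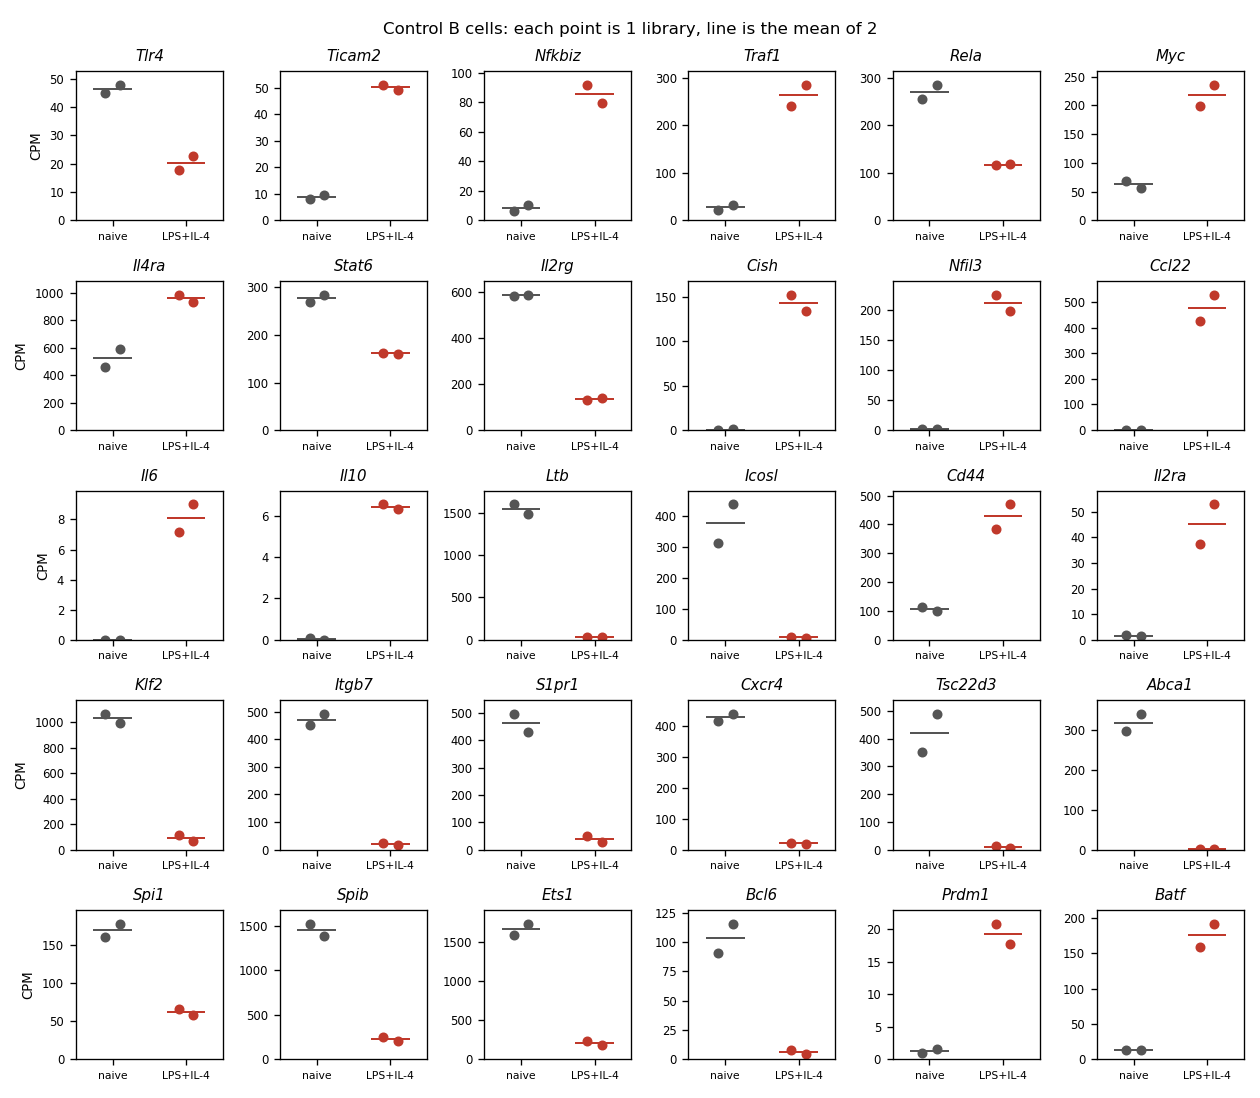
CPM of 30 genes in each control library (y axes from 0), naive in grey and LPS + IL-4 in red, with a line at the mean of 2 libraries. In every panel the 2 naive libraries lie wholly above or wholly below the 2 LPS + IL-4 libraries, as for Klf2 at 1066 and 997 against 117 and 66.6 CPM. The same held for 84.9% of all genes tested.

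Among immunoglobulin constant genes the heavy chains of IgG1 and IgE rose and 8 of 12 genes fell, IgD most of all. Ighg1 (Entrez ID 16017) was counted at 4.93 and 1.17 CPM in naive cells and 119 and 145 CPM after LPS + IL-4, a log2 fold change of 5.43 (SE 0.44, adjusted p = 2.87e-06). Ighe had no count in either naive library and 28.8 and 27.5 CPM after LPS + IL-4. Ighd fell from 1754 and 1817 to 219 and 111 CPM (log2 fold change -3.44, SE 0.28, adjusted p = 3.36e-06). Ighm, at 7472 and 7387 CPM in naive cells and 5575 and 5723 CPM after LPS + IL-4, was not called (log2 fold change -0.40), so IgM transcripts remained abundant beside those of the switched classes. Igha fell from 4.14 and 2.77 to 0.319 and 0.446 CPM. Ighg3, at 8.42 and 2.40 CPM in naive cells and 7.55 and 3.65 CPM after LPS + IL-4, overlapped between the groups. The light chain genes fell, Igkc from 5595 and 5071 to 1321 and 1407 CPM and Iglc2 and Iglc3, near-identical copies between which unique reads may be split, with log2 fold changes of -2.39 and -2.58. Counts per gene do not separate germline transcripts, which precede switching, from transcripts of a switched locus.

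**Figure D3:**
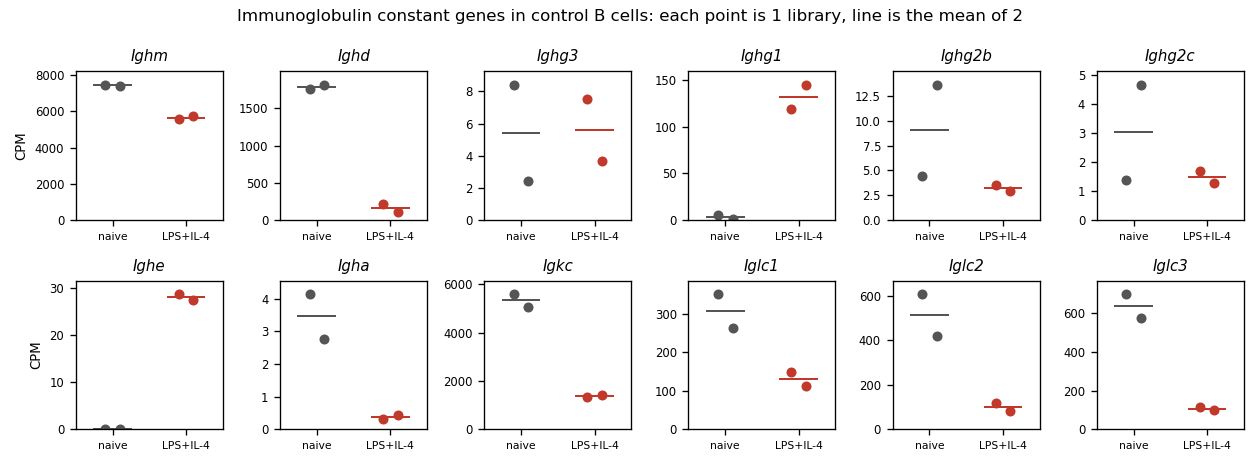
CPM of the 12 immunoglobulin constant genes in each control library (y axes from 0), naive in grey and LPS + IL-4 in red, with a line at the mean of 2 libraries. Ighg1 and Ighe are higher in both LPS + IL-4 libraries, Ighd and Igkc lower, and Ighg3 overlaps.

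Most genes of the class switching machinery rose. Of 26 genes 19 were called higher and the other 7 were not called (34.1% of all genes were called higher), with a median log2 fold change of 1.21. Exo1, a repair exonuclease, rose from 1.67 and 0.801 to 77.9 and 87.4 CPM, Batf, a transcription factor that class switching needs, from 13.8 and 13.0 to 159 and 192 CPM and Rif1, which protects broken ends, from 20.9 and 30.2 to 192 and 189.6 CPM. H2afx and Supt5 were among those not called. Many members of this list also serve DNA replication and repair in dividing cells.

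Transcription factors of the B cell programme were mostly lower. Of 29 genes 15 were called lower and 4 higher (median log2 fold change -0.64), against 31.7% and 34.1% of all genes tested. Spib fell from 1525 and 1388 CPM to 255 and 201 CPM (log2 fold change -2.67, SE 0.18, adjusted p = 8.33e-07), and Spi1, which encodes PU.1, from 161 and 178 to 66.5 and 57.9 CPM (log2 fold change -1.45, SE 0.17, adjusted p = 3.7e-05). Transcripts of both ETS factors that the study deletes therefore took a smaller share of the counts after LPS + IL-4. RNA per cell and protein were not measured here. Ets1, a further ETS factor, fell from 1592 and 1737 to 238 and 187 CPM, Bcl6, the germinal center repressor, from 90.5 and 116 to 8.15 and 4.68 CPM, and Foxo1 had a log2 fold change of -2.11. Mef2b (8.05 and 4.30 to 36.3 and 33.8 CPM), Mybl1, Myb and Pou2f2 rose, although Pou2f2 (39.5 and 101 against 154 and 132 CPM) was not called without naive replicate 1. Ikzf1 and Pou2af1 were not called.

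Genes of plasma cells did not move as a group. Of 17 tested, 6 were called higher and 7 lower, where 34.1% of all genes tested were called higher and 31.7% lower. Prdm1, which encodes the plasma cell regulator Blimp-1, rose from 1.02 and 1.60 to 20.8 and 17.7 CPM (log2 fold change 3.87, SE 0.30, adjusted p = 2.25e-06), and Fam46c, Bhlha15 and Derl3 rose by 3.58, 1.65 and 1.48. Igj, the J chain, fell from 17.4 and 7.94 to 1.96 and 1.29 CPM, and Ly6c2, from a family of close paralogs and also expressed by pDC and T cells, from 71.5 and 43.4 to 0.878 and 0.601 CPM. Irf4 and Mzb1 were not called. The sort kept CD138- cells, and CD138 is encoded by Sdc1 on this list.

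Most genes of antigen presentation and B cell receptor signalling were lower, where 31.7% of all genes tested were called lower. Of 16 MHC class II genes 13 were called lower and the other 3 were not called, with a median log2 fold change of -1.97 and a summed level of 58910 and 60250 CPM in naive cells against 16270 and 13870 CPM after LPS + IL-4. H2-Ob and H2-Oa, which form the peptide-loading regulator H2-O, fell most, from 1751 and 1373 to 170.1 and 97.4 CPM and from 541 and 463 to 56.3 and 38.8 CPM. Cd74, the invariant chain, fell from 22926 and 27244 to 7096 and 6068 CPM (log2 fold change -1.93, SE 0.16, adjusted p = 3.42e-06). Under voom with quantile normalization Cd74 was at -0.13 and not called, and the cause was not tested. Ciita, the master regulator of the class (log2 fold change -0.24), and Ifi30 were among the 3. Of 36 genes of B cell receptor signalling 22 were called lower and 1, Itpr1, higher. Cr2, the complement receptor CD21, fell from 616 and 786 to 23.5 and 33.6 CPM, the kinase Blk from 446 and 415 to 62.9 and 54.3 CPM and Cd79a, a signalling chain of the receptor, from 2980.4 and 2972 to 544 and 452 CPM. Plcg2 and Pik3cd were not called.

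Genes of homing and quiescence fell almost throughout. Of 34 tested, 32 were called lower and the other 2 were not called (31.7% of all genes were called lower), with a median log2 fold change of -2.53. Klf2 (Entrez ID 16598, chromosome 8, 72319062 to 72321654 of GRCm38), a transcription factor that keeps lymphocytes resting and recirculating, fell from 1066 and 997 to 117 and 66.6 CPM (log2 fold change -3.49, SE 0.26, adjusted p = 1.52e-06). Its target S1pr1, the egress receptor, fell from 496 and 430.3 to 49.6 and 29.0 CPM. The 4 largest falls were Tsc22d3, a glucocorticoid-induced regulator (351 and 488 to 11.8 and 7.43 CPM), Itgb7, an integrin chain (449 and 491 to 22.5 and 15.6 CPM), the chemokine receptor Cxcr4 (419 and 441 to 22.5 and 19.5 CPM) and Il7r (9.21 and 5.25 to 0.559 and 0.378 CPM). Il7r was low in all libraries and is expressed by T cells too. The genes not called were Foxp1 (186 and 293 against 274 and 227 CPM) and Klf7. S1pr1 is named for its role beside Klf2, after its values were seen.

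Myc and nearly all ribosome biogenesis genes rose. Myc (Entrez ID 17869, chromosome 15, 61985341 to 61990361 of GRCm38), the growth regulator, was counted at 68.6 and 56.5 CPM in naive cells and 199 and 236 CPM after LPS + IL-4 (log2 fold change 1.80, SE 0.18, adjusted p = 1.27e-05). Within its network of dimer partners 3 of 11 tested genes were called higher and 6 lower, against 34.1% and 31.7% of all genes tested. Mxd3 rose from 0.363 and 0.729 to 8.47 and 8.22 CPM, while Mycl (-2.55 on the log2 scale), Mxd4 (-1.66) and the repressor Mnt (-1.55) fell. Max, the shared partner (147 and 139 against 127 and 151 CPM), was not called. Of 48 ribosome biogenesis genes 46 were called higher, with a median log2 fold change of 2.20 and a summed level of 2736 and 3097 CPM in naive cells against 16190 and 18900 CPM after LPS + IL-4. Ncl, which encodes nucleolin, rose from 204 and 333 to 4599 and 5229 CPM (log2 fold change 4.19, SE 0.25, adjusted p = 4.2e-07). Rrp1b rose from 10.4 and 12.8 to 209 and 234 CPM, Nolc1 from 24.8 and 55.1 to 534 and 589 CPM and Gnl3 from 18.5 and 21.1 to 236 and 257 CPM. The remaining genes, Polr1c and Nop10, were not called. The E-box CACGTG, which MYC and its partners bind, was in 10 of 43 ribosome biogenesis genes (23.3%), in 4 of 11 MYC network genes (36.4%) and in 8.09% of all genes with a promoter. Windows of 4 ribosome biogenesis genes that were called higher and hold a match are shown, with the E-box in capitals.
Pno1, chr11:17211540-17211569, minus strand: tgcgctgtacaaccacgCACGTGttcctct
Nop2, chr6:125131811-125131840, plus strand: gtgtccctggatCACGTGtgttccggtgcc
Utp20, chr10:88826765-88826794, minus strand: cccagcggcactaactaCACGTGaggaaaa
Tsr1, chr11:74898092-74898121, plus strand: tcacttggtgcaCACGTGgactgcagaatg

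These 4 genes rose by 2.87, 2.79, 2.71 and 2.47 on the log2 scale. A match of letters is a description of the promoter and not a binding site. Only 9264 of the 12241 genes tested (75.7%) had a promoter in the table, and a share over tested genes is not given. The 27023 genes used as background include genes that were not tested, so the shares compare unlike sets of genes. Under TMM scaling ribosomal protein genes went mostly the other way from ribosome biogenesis. Of 80, 41 were called lower and 11 higher, against 31.7% and 34.1% of all genes tested, with a median log2 fold change of -0.63. Rpl37a fell from 347 and 315 to 57.6 and 62.6 CPM and Rps27 from 50.1 and 117 to 17.6 and 14.5 CPM, while Rpl39 rose from 0.943 and 0.364 to 8.19 and 8.39 CPM. Rplp0 and Rpl4 were not called. Under voom with quantile normalization the log2 fold change of Rplp0 went from -0.17 to 0.71 and that of Rpl4 was 1.18, both called higher. The direction of these abundant members thus depended on the scaling, and the list was not counted under voom. These genes have many processed pseudogenes, and counting unique reads leaves their levels uncertain. Rn45s, the ribosomal RNA precursor, was counted at 39663 and 1923 CPM in naive cells and 5225 and 4744 CPM after LPS + IL-4, a difference set by naive replicate 1. Without that library its log2 fold change was 1.35 in place of -2.06.

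Cell cycle genes had the largest median rise of the lists. Of 37 mitosis genes 36 were called higher and 1 lower, with a median log2 fold change of 6.28 and a summed level of 253.9 and 252.3 CPM in naive cells against 6209 and 7285 CPM after LPS + IL-4. Mki67, the proliferation marker Ki-67, rose from 1.02 and 1.75 to 600.3 and 428 CPM (log2 fold change 8.54, SE 0.31, adjusted p = 5.72e-08). Cenpf, a kinetochore protein, rose from 0.218 and 0.146 to 74.7 and 81.6 CPM and Bub1, a checkpoint kinase, from 0.726 and 0.146 to 109.7 and 127 CPM. The exception was Pttg1, the gene of securin, at 28.2 and 25.8 CPM in naive cells and 14.2 and 14.4 CPM after LPS + IL-4 (log2 fold change -0.92, SE 0.18, adjusted p = 0.00136). Of 49 genes of DNA replication and nucleotide synthesis 47 were called higher (median 2.63). Mcm10 rose from 0.435 and 0.437 to 143 and 159 CPM, Cdc6 from 0.726 and 0.729 to 110.2 and 126 CPM, Orc1 from 1.31 and 0.583 to 81.3 and 93.9 CPM and Rrm2, a subunit of ribonucleotide reductase, from 8.34 and 5.03 to 463 and 573 CPM. Mcm10, Cdc6 and Orc1, which act at replication origins, were thus almost absent from naive libraries. The 2 genes not called were the licensing factor Cdt1 (78.8 and 115 against 83.8 and 86.7 CPM) and the polymerase subunit Pold1.

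Among G1 cyclins and inhibitors 16 of 25 were called higher and 5 lower, against 34.1% and 31.7% of all genes tested. Ccnd2, cyclin D2, rose from 76.3 and 71.9 to 1257 and 1601 CPM and Ccne2, cyclin E2, from 0.363 and 0.437 to 26.5 and 34.2 CPM. The repressors E2f8 and E2f7 rose by 7.31 and 5.99 on the log2 scale. The inhibitor Cdkn1b, encoding p27, fell from 168 and 161 to 26.3 and 26.3 CPM (log2 fold change -2.65, SE 0.17, adjusted p = 7.61e-07) as did Cdkn2d (-2.25), while Cdkn2a rose from 0 and 0.219 to 2.91 and 2.04 CPM. Ccnd1 fell from 23.3 and 7.50 to 0.918 and 0.738 CPM, with naive replicate 1 well above replicate 2. Ccnd2 is named for its role in B cells, after its values were seen. The E2F letters TTTNGCGC were in 9 of 41 genes of the replication list (22.0%) and in 1.57% of all genes with a promoter. Windows of 4 genes called higher with a match are shown, with the match, on either strand, in capitals.
Orc1, chr4:108579416-108579445, plus strand: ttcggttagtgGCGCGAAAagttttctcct
Lig1, chr7:13278841-13278870, plus strand: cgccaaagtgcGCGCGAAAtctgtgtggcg
Mcm3, chr1:20820263-20820292, minus strand: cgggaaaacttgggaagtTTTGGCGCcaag
Mcm7, chr5:138171849-138171878, minus strand: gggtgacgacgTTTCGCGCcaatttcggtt

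Lig1, DNA ligase 1, rose by 4.27 on the log2 scale, and Mcm3 and Mcm7, subunits of the replicative helicase, by 3.35 and 3.34.

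Metabolic lists rose to different degrees, where 34.1% of all genes tested were called higher and 31.7% lower. Of 36 genes of amino acid supply, which covers synthesis, import and charging of transfer RNA, 29 were called higher and 1 lower (median log2 fold change 2.11). Asns, asparagine synthetase, rose from 0.726 and 0.364 to 31.0 and 34.9 CPM, Chac1 from 0 and 0.146 to 2.99 and 3.04 CPM, Shmt1 from 11.5 and 8.74 to 219.9 and 299.9 CPM and Mthfd2, a mitochondrial folate enzyme, from 22.0 and 13.9 to 184 and 236 CPM. The member called lower was Ddit3, the stress factor CHOP (10.4 and 12.8 to 5.75 and 3.57 CPM). Of 26 genes of sterol and fatty acid synthesis 21 were called higher and 1 lower (median 1.79). Idi1, Elovl6 and Sqle rose by 3.04 to 3.56 on the log2 scale, and the desaturase Scd1 fell from 3332 and 3197 to 654 and 673 CPM (log2 fold change -2.30, SE 0.15, adjusted p = 8.14e-07). Most genes of sterol synthesis were therefore higher while the cholesterol exporter Abca1 was lower. Of 21 glycolysis genes 13 were called higher and 2 lower. Slc16a1, a lactate transporter, rose from 20.8 and 16.1 to 228 and 303 CPM and Hk2, hexokinase 2, from 8.42 and 10.3 to 110.2 and 141 CPM, whereas the glucose transporter Slc2a3 fell from 119 and 108 to 29.8 and 34.9 CPM. Aldoa and Gpi1 were not called. Gapdh and Pgk1 rose too, but have many pseudogenes, which leaves counts of unique reads uncertain.

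Respiratory chain genes differed by genome. Of 42 nuclear genes of oxidative phosphorylation 14 were called higher, 3 lower and 25 neither (median 0.31). The share called higher was close to that of all genes (34.1%). Sdhd, Ndufab1, Cycs and Ndufa10 rose by 1.48 to 2.26 on the log2 scale. All 15 mitochondrially encoded genes tested were called lower, with log2 fold changes from -3.05 to -1.12. COX1 fell from 34038 and 27231 to 6038 and 6315 CPM and CYTB from 13122 and 12679.5 to 2381 and 2512 CPM. Mitochondrial transcripts took 6.94% and 6.55% of the counts in naive cells and 1.63% and 1.62% after LPS + IL-4. Under voom with quantile normalization COX1 had a log2 fold change of -0.22 and was not called.

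Protein handling rose in part, where 34.1% of all genes tested were called higher and 31.7% lower. Of 37 proteasome genes 28 were called higher and 2 lower (median 1.19). Psmd1 and Psmd12, subunits of the regulatory particle, rose by 2.62 and 2.28, and the 2 falls were Psmb10 (-0.995) and Psmb9 (-0.71), catalytic subunits of the immunoproteasome. Psmb9 lost its call under library totals alone (-0.52), and Psmb8, the other such subunit, was not called (679 and 616 against 511 and 581 CPM). Of 37 genes of the endoplasmic reticulum 21 were called higher and 6 lower, with the chaperones Hsp90b1 (278 and 338 to 1572 and 1728 CPM) and Hspa5 (1.62) rising and Syvn1 falling (-1.24). Of 13 tested heat shock genes 9 were called higher and 3 lower. Hsp90ab1, a cytosolic HSP90, rose from 1014 and 1276 to 5994 and 6751 CPM (log2 fold change 2.48, SE 0.17, adjusted p = 1.22e-06), Hsp90aa1 from 47.7 and 52.2 to 493 and 642 CPM and Hspd1, a mitochondrial chaperonin, from 104 and 96.4 to 955 and 1285 CPM. The stress-inducible pair Hspa1a and Hspa1b, near-identical copies, fell from 14.9 and 2.84 and from 50.4 and 13.9 CPM to 0.36 and 0.33 CPM and 0.76 and 1.32 CPM.

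Immediate early genes were mostly lower. Of 19 tested, 11 were called lower and 4 higher, against 31.7% and 34.1% of all genes tested. Fos fell from 188 and 40.1 to 0.958 and 0.755 CPM (log2 fold change -7.10, SE 0.70, adjusted p = 1.09e-05) and Dusp1 from 61.2 and 16.8 to 1.72 and 1.65 CPM. Naive replicate 1 held several times more Fos, Dusp1, Hspa1a and Hspa1b than replicate 2, and every naive library held more than every LPS + IL-4 library. Atf3 rose from 0.435 and 0.437 to 13.5 and 20.7 CPM. Of 16 tested BCL2 family genes 8 were called higher and 3 lower, against the same shares of all genes tested. Bcl2l1 rose from 8.63 and 9.76 to 102 and 142 CPM and Bcl2a1d, from a cluster of close copies, from 9.21 and 6.48 to 81.3 and 96.0 CPM, whereas Bmf, a proapoptotic member, fell from 89.4 and 88.2 to 14.3 and 8.85 CPM, Bcl2 from 94.2 and 126 to 40.6 and 42.4 CPM with Mcl1 at a log2 fold change of -1.21. Among survival genes of the family Bcl2l1 and Bcl2a1d were thus higher, and Bcl2 and Mcl1 lower.

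**Figure D4:**
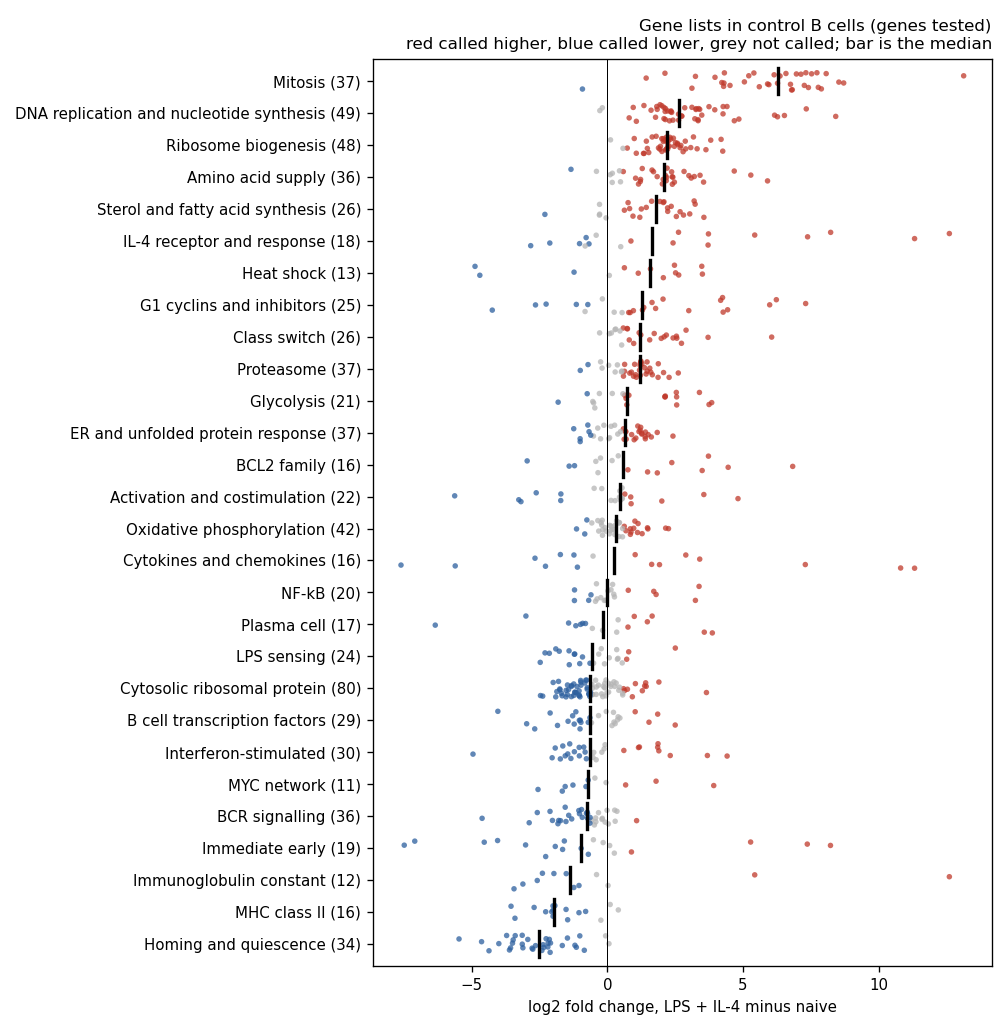
Each point is a tested member of a gene list, with its log2 fold change (LPS + IL-4 minus naive) on the x axis; red was called higher, blue lower and grey neither, the number tested follows the name, and the bar is the median. Medians run from -2.53 for homing and quiescence to 6.28 for mitosis.

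Interferon-stimulated genes separated the LPS culture from the other culture of the series. Against naive cells, 9 of 30 were called higher and 15 lower after LPS + IL-4. Of all genes tested 34.1% were called higher, a larger share than in this list, and 31.7% lower. Ifih1, which encodes the RNA sensor MDA5, rose from 4.64 and 8.31 to 129 and 148 CPM (log2 fold change 4.42, SE 0.27, adjusted p = 5.19e-07), the guanylate-binding protein gene Gbp2 from 22.0 and 23.8 to 283 and 308 CPM, Ifit1 from 7.11 and 20.3 to 59.9 and 77.1 CPM and Isg15, a ubiquitin-like modifier, from 19.5 and 35.5 to 92.1 and 113 CPM. Ifit3 fell from 22.3 and 69.9 to 1.68 and 1.36 CPM, and Rsad2 (-2.03), Irf9 (-1.92) and Ifi44 (-1.73) fell too. Naive replicate 2 exceeded naive replicate 1 in 28 of the 30 genes. The list therefore changed in both directions against naive cells that carried a level of their own.

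A fit of the 6 control libraries, scaled together, compared LPS + IL-4 with CD40L + IL-4, a culture that stands for T cell help. Of 12649 genes tested, 2541 (20.1%) were higher and 2748 (21.7%) lower in the LPS culture, and for CD40L + IL-4 against naive cells 26.1% were called higher and 23.3% lower. Of the 30 interferon-stimulated genes 24 were called higher with LPS than with CD40L and the other 6 were not called, with a median log2 difference of 2.49. Against naive cells the CD40L culture had 28 of the 30 called lower and the other 2 not called. Ifit1 was counted at 0 and 0.203 CPM with CD40L and 61.2 and 77.4 CPM with LPS (edgeR adjusted p = 2.75e-06), where the CD40L value rests on 2 counts, and Oasl1, an oligoadenylate synthetase-like gene, at 1.95 and 2.03 against 202 and 236 CPM (log2 difference 6.78, SE 0.32, adjusted p = 1.22e-07). Irf7, an interferon regulatory factor that fell against naive cells, was also higher with LPS (35.9 and 33.9 CPM) than with CD40L (1.70 and 3.24 CPM). Irf7 is named after its values were seen. The 2 cultures share the naive libraries in their comparisons with naive cells, and culture and sequencing set cannot be told apart.

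The cultures also differed in growth genes and in genes of the IL-4 response. Ribosome biogenesis was higher with LPS in 44 of 48 genes and the other 4 were not called (median log2 difference 1.56), with Ncl at 1598 and 1386 CPM with CD40L and 4701 and 5251 CPM with LPS. Amino acid supply was higher in 26 of 36 and lower in 1, and the proteasome higher in 20 of 37 and lower in 1. Myc was counted at 95.6 and 81.9 CPM with CD40L and 203 and 237 CPM with LPS (log2 difference 1.31, SE 0.19, adjusted p = 0.000206). Mitosis genes, by contrast, were higher in 8 of 37 and lower in 1, a share of higher calls close to that of all genes. The IL-4 list was lower in 10 of 18 and higher in 3. Il4ra stood at 1557 and 1804 CPM with CD40L and 1010.0 and 934 CPM with LPS (log2 difference -0.79, SE 0.19, adjusted p = 0.00588), Socs2 at 208 and 197 against 31.6 and 29.3 CPM and Ighe at 57.8 and 45.2 against 29.4 and 27.6 CPM. Socs2 and Ighe were lower with LPS than with CD40L. Of the 26 class switch genes, however, 12 were higher and 2 lower with LPS. MHC class II was lower with LPS in 13 of 16 genes and homing and quiescence in 28 of 34, with Klf2 at 409 and 515 against 119 and 66.9 CPM.

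Among genes called without overlap and at 10 CPM or more in 1 of the cultures, the 6 largest differences in the LPS direction were those of Ifit1, Isg15 and Oasl1 and of Dlk1 (0.17 and 0 CPM with CD40L, 15.3 and 16.3 CPM with LPS), Sytl3 (0.17 and 0 against 14.3 and 14.9 CPM) and 1110032F04Rik (0.254 and 0.608 against 41.9 and 57.3 CPM). The 6 in the CD40L direction were Slpi, a secreted protease inhibitor (292 and 327 against 1.39 and 1.33 CPM, log2 difference -7.83), Mmp25 (-6.41), Fscn1, the actin bundler fascin (39.0 and 99.4 against 0.939 and 0.982 CPM), Apol7c, Gm8221 and Zfp521. Slpi and Fscn1 were not called between LPS + IL-4 and naive cells. In all, 56 genes were called higher than naive after LPS + IL-4 and lower after CD40L + IL-4 and 79 the reverse, with the difference between the cultures itself called.

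**Figure D5:**
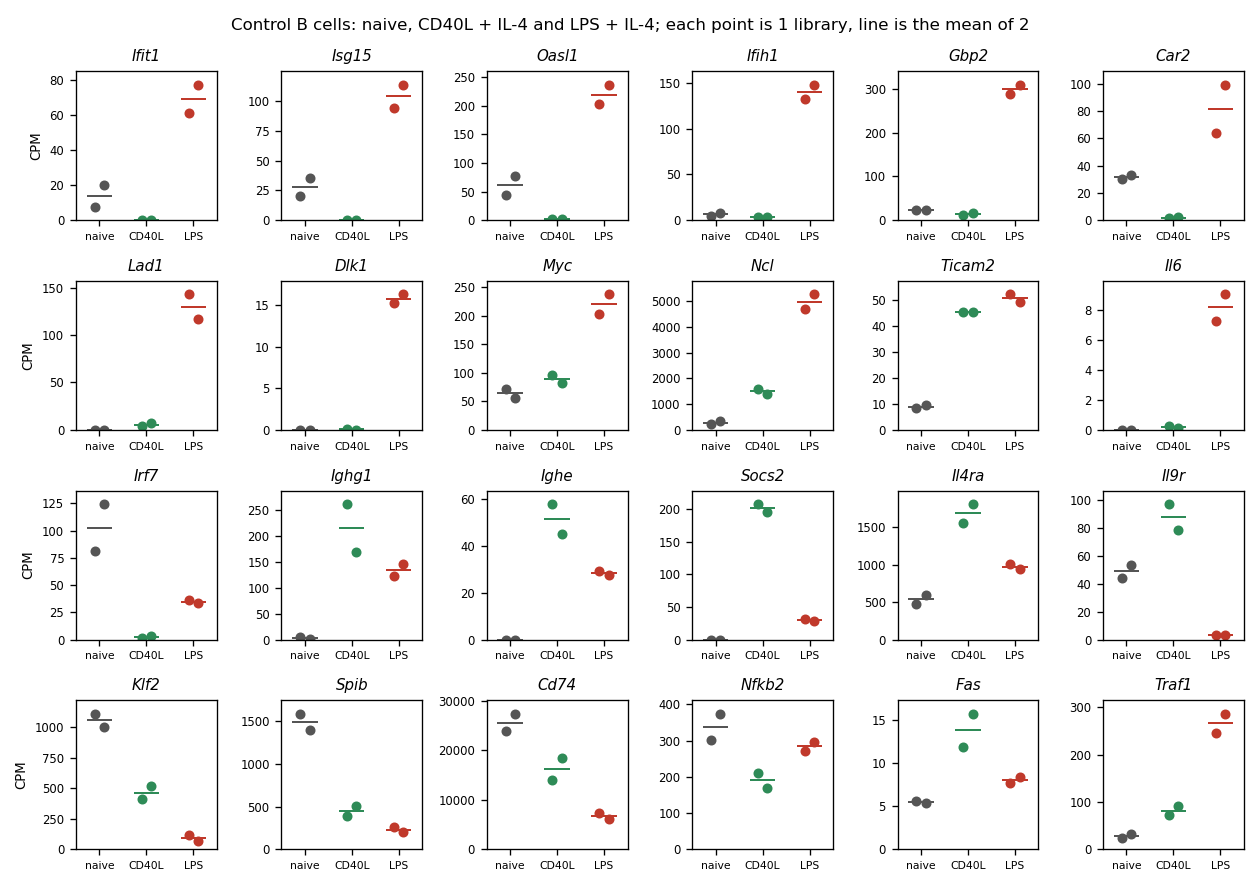
CPM, scaled over 6 libraries, of 24 genes in control cells that were naive (grey), cultured with CD40L + IL-4 (green, labelled CD40L) or with LPS + IL-4 (red, labelled LPS); each point is 1 library, the line the mean of 2, and y axes start at 0. Ifit1, Isg15 and Oasl1 are near 0 with CD40L and above naive with LPS, and Socs2 and Ighe are highest with CD40L.

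The response was also read in the other genotypes, in a fit of 16 libraries in which 13304 genes were tested. PU.1 cKO cells had 34.1% of genes called higher and 31.7% lower, SpiB KO cells 32.7% and 32.2%, and the double knockout (DKO) 31.1% and 30.4%. Of the 4170 genes higher in control, PU.1 cKO cells shared 88.2% (81.2% of their own higher list), SpiB KO cells 86.8% (83.4%) and DKO cells 77.6% (78.2%). Of the 3883 genes lower in control the shares were 86.2%, 86.0% and 75.6% in the same order (79.4%, 77.9% and 72.7% of the lower lists). Calls shared by all 4 genotypes numbered 3086 higher and 2739 lower. These genotypes have their own naive and cultured libraries, and stage and sequencing set cannot be told apart in them either. The study reports that naive DKO cells kept much of the floxed Spi1 exon, which was efficiently deleted after LPS + IL-4. In DKO cells, stage therefore cannot be told apart from the extent of PU.1 loss either. Mitosis genes were called higher in 36 of 37 in each, and ribosome biogenesis genes in 45, 46 and 42 of 48. Among genes named above, Myc had a log2 fold change of 1.30 without PU.1, 1.78 without SpiB and 1.11 without both, and Klf2 one of -3.60, -2.51 and -2.03. Spib had log2 fold changes of -3.50, -2.50 and -3.08, where the values without SpiB concern what remains of a deleted gene. For Ifih1 they were 3.84, 3.77 and 2.29, while Isg15 was called in control and SpiB KO cells and neither in PU.1 cKO nor in DKO cells. Fcer2a was called lower in control and PU.1 cKO cells and not in the genotypes lacking SpiB. Whether any gene's response differed between genotypes was not tested.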

How the data were processed

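RNA from sorted B cells was sequenced by the authors on an Illumina NextSeq, aligned with Subread to GRCm38 (mm10) and counted per RefSeq gene with featureCounts from uniquely mapped reads; versions and the strand setting are not given in the sources used here. The deposited raw counts were used for all tests. The deposited log2 RPKM values, which the authors quantile normalized, with the LPS + IL-4 libraries tabulated apart, served only 1 alternative threshold. Groups came from the sample titles.

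Counts of the 4 control libraries were scaled with TMM and tested with edgeR 4.0.16 in R 4.3.3 (quasi-likelihood, Benjamini-Hochberg), keeping genes at 0.5 CPM or more in 2 or more libraries, and called at an adjusted p under 0.15 and a fold over 1.5, as in the study's methods. Genes without a symbol (517, with 0.162% of counts) were kept, named by their RefSeq symbol or Entrez ID. The same test was run on 6 control libraries for the cultures and on 16 libraries for the other genotypes. Entrez IDs were matched to RefSeq positions for 11958 of the 12241 genes tested. Fitted fold changes of genes with few counts depend on the prior count; genes at 0 in a group were bounded with 3 counts per library.

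Library depth is given with the results; the deeper LPS + IL-4 libraries measure low genes with less counting error. Replicate numbers were not used to pair the libraries: same-numbered control libraries deviated with a correlation of -0.185. Any difference between replicates enters that value, and whether same-numbered libraries share mice or days was not tested. Alternatives were RLE and library-total scaling, DESeq2 1.42.0, limma 3.58.1 with voom, other filters and thresholds, thinning, a replicate block and leaving out each library.

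Genes named were the stage and study genes (Spi1, Spib, Tlr4, Il4ra, Fcer2a, Ighg1, Ighe, Myc, Klf2), the 12 largest rises and falls without overlap and at 10 CPM or more, the 5 most abundant called genes of each group, and per list up to 4 rises, 4 falls and 2 genes not called, with 6 largest differences each way between the cultures. Genes with promoter windows, list markers and sex-linked genes were named beside these, and Igkc, Pik3cd, Sdc1, Car2, Il9r and Cd36 after their values were seen. The libraries and gene lists were chosen with earlier results of these data known, so no list was tested. Some genes are not reported here.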

Additional observations from a re-analysis of the deposited data

Results flagged for a closer look

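In control cells 7 named genes rose over naive cells after LPS + IL-4 and fell after CD40L + IL-4, with the difference between the cultures called in edgeR's test. The log2 difference, LPS + IL-4 minus CD40L + IL-4, was 9.46 for Ifit1, 7.54 for Isg15, 7.22 for Sytl3, 6.78 for Oasl1, 5.49 for Car2, 5.34 for Ifih1 and 4.39 for Gbp2. Among the named genes Aldoc, encoding aldolase C, went the reverse way, with a difference of -1.54. Larger differences were seen beyond these genes. Il9r went the reverse way with -4.66, and Cd36 the same way as the 7 genes with 4.73. Both were added after their values were seen. Ifit1, Isg15, Oasl1, Ifih1 and Gbp2 are interferon-stimulated genes, Car2 encodes carbonic anhydrase 2 and Sytl3 a synaptotagmin-like protein. Car2 was counted at 30.2 and 33.4 CPM in naive cells, 1.36 and 2.33 CPM with CD40L + IL-4 and 63.6 and 99.2 CPM with LPS + IL-4 (adjusted p = 4.41e-07). For Ifit1 and Sytl3 the CD40L + IL-4 libraries together held 2 counts each, so the size of these differences depends on the prior count. Both cultures were compared with the same naive libraries, and culture and sequencing set cannot be told apart.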

How the results depend on the processing

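The number of genes called between LPS + IL-4 and naive cells stayed within 1.5 times 8053 under every alternative run, from 5898 with a fold over 2 to 8912 with no filter on low counts, with 7760 by DESeq2, 8108 by voom and 6928 to 7715 when 1 library was left out. Between LPS + IL-4 and CD40L + IL-4 it ran from 4003 to 5640, against 5289. The replicate block, which the data do not back as a pairing, gave 7996 and 5238 calls, and 8749, 8631 and 8190 in PU.1 cKO, SpiB KO and PU.1 SpiB DKO, and changed the call of no named gene. A crossed pairing, added after seeing the data, gave 8016. Library totals without a scaling factor moved the median of all genes by 0.183 on the log2 scale and the share of calls that were higher from 51.8% to 59.0%; voom moved them by -0.102 and to 47.7%. Of 213 named genes called, 145 kept their call under all 18 settings in which a gene could be fitted. With a mean log2 RPKM above 0 6504 genes and 47 fewer named genes were called. Sign turns that met a call were seen for Rn45s under voom (0.33) and over the left-out libraries (-3.06 without naive replicate 2 to 1.35 without naive replicate 1), for Ighg3 over the left-out libraries (-0.69 without naive replicate 2 to 1.17 without naive replicate 1) and for Rplp0 under voom (0.71); the cause was not tested. In the same genes, values that were not called turned sign for Ighg3 under voom (-0.055), thinning (-0.065), the fit of 16 libraries (-0.0014) and without LPS + IL-4 replicate 1 (-0.51), and for Rplp0 under library totals (0.020). Depth limits genes near 0.5 CPM, which rest on few counts in the naive libraries.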
